A study of Mus musculus with 26 samples.

Results

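The expression of Trp53, the gene for the transcription factor p53, and of 9 genes that p53 is known to bind and activate was compared between neonatal and adult mouse pancreatic islets. The targets were Mdm2, Cdkn1a, Ccng1, Btg2, Plk2, Plk3, Trp53inp1, Phlda3 and Zmat3. The genes were taken by symbol from a table of 13641 genes. All 10 were in the table. All 10 also passed the filter on low values, which kept 13402 genes.

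RNA came from hand-picked islets pooled for each library, and every mouse was C57BL/6J. No other allele and no treatment is named for any group. Neonatal islets were collected at postnatal day 5 and labelled small (9 libraries) or large (11 libraries), and adult islets were collected at 2.5 months (6 libraries). The small libraries split into 4 of batch 1, 3 of batch 2 and 2 of batch 3, the large ones into 4, 4 and 3, and the adult ones into 4 of batch 2 and 2 of batch 3. The labels do not say what a batch was, nor whether separate animals gave the libraries. The p-values therefore cover the spread of libraries only, which may be technical. Whole islets hold several cell types, and in such bulk samples fewer cells of a type and less RNA per cell cannot be told apart.

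p53 is kept scarce in unstressed cells by the ubiquitin ligase Mdm2, whose own gene p53 activates, so the pair forms a negative feedback loop. DNA damage and other stresses stabilise p53, which then raises genes for cell cycle arrest, repair and cell death. Several of these targets, Btg2, Plk2 and Plk3 among them, also respond to growth factors and depolarisation independently of p53, and in islets Phlda3 is known as a brake on growth signalling through Akt.

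Promoter sequence of 4 genes is printed because it carries matches to the DNA that p53 binds. Windows of 250 bases before to 50 bases after an annotated start were matched in RefSeq (GRCm38.p6, the patch release of mm10) for 8 of the 10 genes, all but Trp53inp1 and Zmat3. They were searched for the p53 response element, which is a pair of units of 10 bases with 0 or 1 base between them. The unit reads alike on both strands, so 1 pass covers both. Up to 3 mismatches were allowed, and none in the 4 core bases of a unit. Such an element was in 2 of the 9 windows of these genes and in 1.06% of all 32851 windows. A single unit with no mismatch was in 4 of the 9 windows and in 8.36% of all windows. Capitals mark the element in Cdkn1a and Trp53, and a single unit with no mismatch in Mdm2 and Ccng1, whose windows held no full element. Sequence outside the windows, such as the rest of each gene, was not searched.
Cdkn1a, chr17:29090729-29091028, plus strand: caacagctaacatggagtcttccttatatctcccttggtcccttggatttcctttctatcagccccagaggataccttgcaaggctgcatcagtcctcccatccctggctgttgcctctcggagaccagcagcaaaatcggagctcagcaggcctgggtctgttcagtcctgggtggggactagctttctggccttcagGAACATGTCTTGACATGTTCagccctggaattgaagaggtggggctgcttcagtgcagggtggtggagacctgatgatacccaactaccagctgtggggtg
Trp53, chr11:69580109-69580408, plus strand: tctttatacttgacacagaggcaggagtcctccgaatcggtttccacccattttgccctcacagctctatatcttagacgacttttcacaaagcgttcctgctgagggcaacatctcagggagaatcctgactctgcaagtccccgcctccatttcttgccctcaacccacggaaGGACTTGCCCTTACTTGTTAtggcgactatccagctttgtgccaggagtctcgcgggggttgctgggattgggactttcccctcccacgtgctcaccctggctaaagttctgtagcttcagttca
Mdm2, chr10:117710709-117711008, minus strand: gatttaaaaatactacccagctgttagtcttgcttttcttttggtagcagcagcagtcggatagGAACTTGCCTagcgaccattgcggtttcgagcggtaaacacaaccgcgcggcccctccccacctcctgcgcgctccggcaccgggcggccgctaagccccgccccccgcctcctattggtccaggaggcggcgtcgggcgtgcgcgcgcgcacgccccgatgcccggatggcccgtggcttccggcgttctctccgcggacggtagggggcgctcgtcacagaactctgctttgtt
Ccng1, chr11:40755237-40755536, minus strand: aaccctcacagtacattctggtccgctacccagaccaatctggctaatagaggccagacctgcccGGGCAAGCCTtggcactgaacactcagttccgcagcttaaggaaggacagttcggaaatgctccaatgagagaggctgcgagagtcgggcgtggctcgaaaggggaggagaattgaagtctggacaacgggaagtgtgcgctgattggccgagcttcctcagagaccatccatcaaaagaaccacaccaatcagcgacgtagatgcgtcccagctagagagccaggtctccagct
The Cdkn1a element lay at positions -51 to -32 from the upstream start and had 1 mismatch. It began 2841 bases before the second annotated start of Cdkn1a, whose own window held no element. The Trp53 element, at positions -75 to -56, had 3 mismatches. A match is a description of the letters and not evidence of binding, and these data hold no measurement of p53 binding.

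FPKM divides a gene's fragments by its length in kilobases and by the library's total in M (mega), and the depth behind it could be recovered. It was lowest at 15.5 M and highest at 32.0 M fragments in the listed genes. The adult libraries of batch 2 held 25.2 M to 27.4 M fragments and those of batch 3 held 18.5 M and 17.3 M. Small libraries of batch 1 were shallower, with 15.5 M to 18.3 M fragments, than large libraries of batch 1, with 21 M to 23.2 M. As a check of the islet label, the FPKM of 9 β cell marker genes summed to 89946 to 142743 in neonatal, 128463 to 180585 in adult batch 2 and 163284 to 166249 in adult batch 3 libraries. The insulin genes Ins1 and Ins2 made up most of these sums, with neonatal means of 46584 and 58395 FPKM. The sums therefore say little about the other markers. The sum of 13 acinar markers spread widely within groups, at 19.2 to 4283 in neonatal, 10.6 to 4905 in adult batch 2 and 127 to 279 in adult batch 3 libraries. All 8 proliferation markers and all 10 endothelial markers were called higher in neonatal islets, and 9 of 10 mesenchymal markers, where 46.8% of all genes were called higher. So were the 3 erythroid markers in the table, of 6 listed, with a median log2 change of 3.96. Their FPKM summed to 230 to 883 in neonatal, 17.8 to 82.0 in adult batch 2 and 6.87 to 10.9 in adult batch 3 libraries. The part of other cell types in the results below was not tested. Over all genes the median log2 change of neonatal against adult islets was 0.16 in the deposited scaling. Median-of-ratios rescaling moved it to -0.019 and quantile normalization to -0.061. With these, 4475 genes were higher and 4664 lower, and 4026 higher and 5021 lower, against 6272 higher and 2824 lower in the deposited scaling. In the deposited scaling, batch 2 alone gave a median of 0.19 and batch 3 alone gave 0.15.

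Adult islets fell into separate levels by batch for most of these genes. Cdkn1a, Plk3, Plk2, Btg2 and Trp53inp1 were between 2.63 and 8.79 times as high in adult batch 2 as in adult batch 3, and neonatal islets lay between the adult batches, above both or below both, depending on the gene. In all 20 neonatal libraries Plk2 was above, and Ccng1 and Trp53inp1 were below, every adult library. Such a gap between the ages was seen in 25.4% of all genes, upward in 20.2% and downward in 5.21%. The difference of neonatal from adult islets was therefore tested within batch 2, within batch 3 and, as a test of its own, between these batches.

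**Figure D1:**
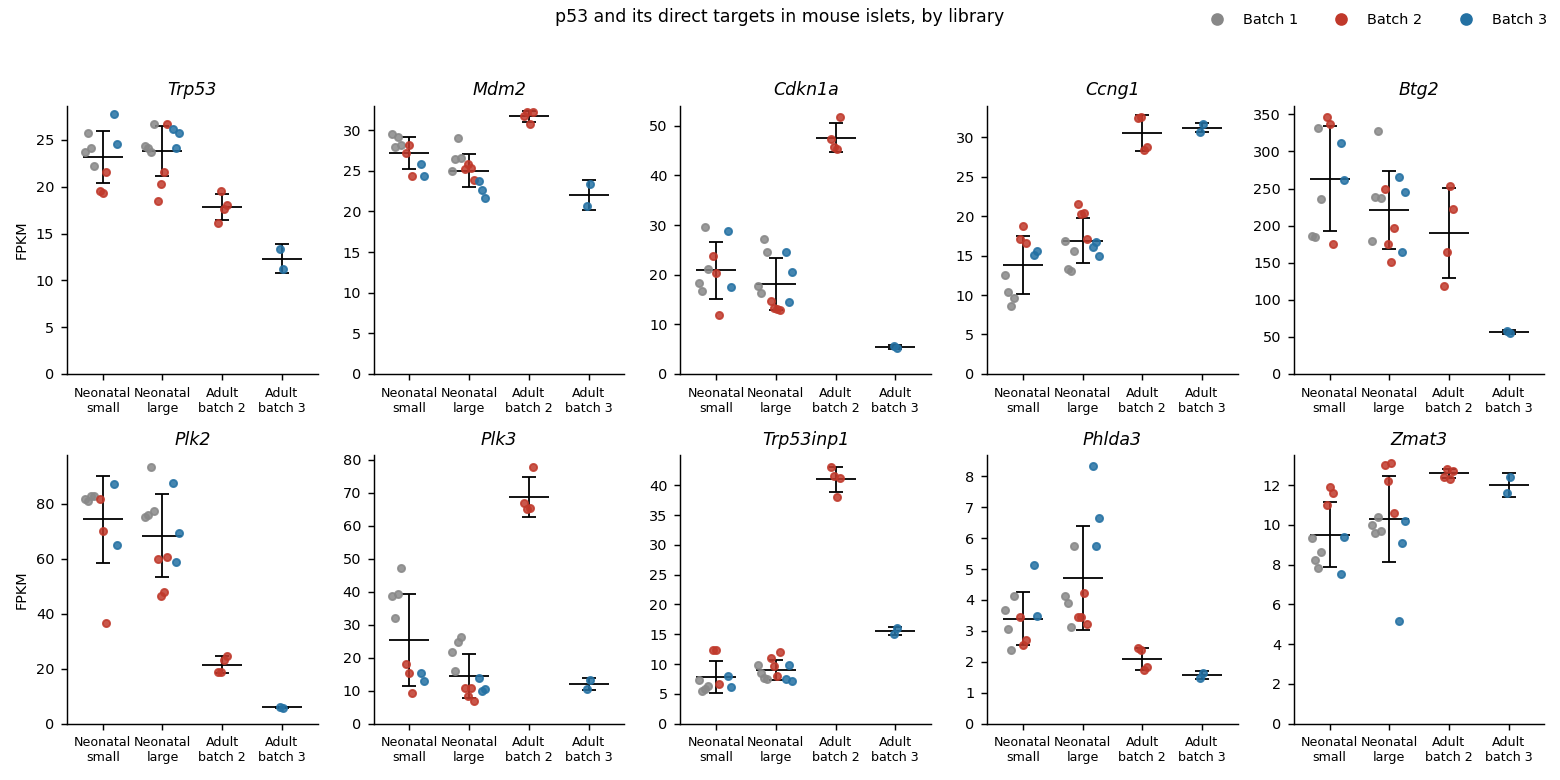
FPKM of p53 and its direct targets in each library, with the mean and SD of each group as lines; the colour of a point gives its batch. Cdkn1a and Plk3 in the 4 adult libraries of batch 2 lie above every neonatal library, while the 2 adult libraries of batch 3 lie below every neonatal library for Cdkn1a, Btg2 and Plk2.

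Trp53 itself was higher in neonatal islets. Small neonatal islets had 19.3, 23.7 and 27.8 FPKM at the lowest, median and highest, and large neonatal islets had 18.5, 24.1 and 26.7 FPKM. Adult islets had 16.1, 19.5, 17.6 and 18.1 FPKM in batch 2 and 13.4 and 11.2 FPKM in batch 3. The adult libraries of batch 3 lay below all others, and those of batch 2 overlapped the lower neonatal libraries. In limma's test on log2(FPKM + 1), neonatal islets were higher by 0.22 ± 0.077 (SE, adjusted p = 0.0145) in batch 2 and by 1.01 ± 0.10 (adjusted p = 1.28e-08) in batch 3. Relative to the median change of all genes these were 0.028 and 0.86. The batch 2 call was lost after median-of-ratios rescaling (0.0029, adjusted p = 0.974), after quantile normalization (0.13, adjusted p = 0.143) and without adult replicate 1 (0.17, adjusted p = 0.0722). The change differed between the batches by -0.79 ± 0.13 (adjusted p = 3.27e-05).

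Mdm2, the ligase that marks p53 for destruction, was lower in neonatal than in adult islets in batch 2. Its lowest, median and highest levels were 24.4, 27.9 and 29.5 FPKM in small and 21.6, 25.2 and 29.0 FPKM in large neonatal islets. Adult islets had 31.7, 32.2, 30.7 and 32.2 FPKM in batch 2 and 20.7 and 23.4 FPKM in batch 3. Every neonatal library was below the adult libraries of batch 2, and neonatal libraries overlapped the adult ones of batch 3. Neonatal Mdm2 was lower by -0.29 ± 0.051 (log2 change ± SE, adjusted p = 2.90e-05) in batch 2, and its change of 0.11 ± 0.068 (adjusted p = 0.156) in batch 3 did not pass. The difference between the batches was -0.40 ± 0.085 (adjusted p = 6.09e-04). Over all batches the change of -0.14 ± 0.056 passed (adjusted p = 0.0263). That call was lost without a batch term (-0.11, adjusted p = 0.228) and without small replicate 9 or any 1 of adult replicates 1 to 4 (adjusted p 0.0543 to 0.0746).

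Cdkn1a, whose product p21 inhibits cyclin-dependent kinases and halts the cell cycle, was lower in neonatal than in adult islets in batch 2 and higher in batch 3. The lowest, median and highest of the small neonatal libraries were 11.8, 20.4 and 29.7 FPKM, and of the large ones 12.9, 16.4 and 27.1 FPKM. Adult islets had 47.4, 45.8, 45.4 and 51.7 FPKM in batch 2 and 5.68 and 5.14 FPKM in batch 3. No library of an adult batch overlapped the neonatal libraries, which lay in the gap. The log2 change was -1.55 ± 0.18 (adjusted p = 1.05e-07) in batch 2 and 1.78 ± 0.24 (adjusted p = 1.44e-06) in batch 3. The batches differed by -3.33 ± 0.30 (adjusted p = 2.07e-08). Pooled over all batches, opposite changes left -0.37 ± 0.37 (adjusted p = 0.394), which did not pass. Exons of Cdkn1a share 273 bases with a transcript of unknown status on the other strand in GENCODE M21, and whether counting used the strand is not given in the sources used here. The length behind the Cdkn1a FPKM was 2222 bases, against 3553 exon bases in GENCODE M21, so whether the shared bases were counted is not known.

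Btg2, an antiproliferative gene, was the most abundant of these transcripts per length in neonatal islets and in adult batch 2 and batch 3. Small neonatal islets had 175, 261 and 347 FPKM at the lowest, median and highest, and large neonatal islets had 151, 237 and 327 FPKM. Adult islets had 119, 165, 254 and 223 FPKM in batch 2 and 58.3 and 54.9 FPKM in batch 3. Neonatal and adult batch 2 libraries overlapped, and both adult libraries of batch 3 lay far below them. Neonatal minus adult islets gave a log2 change of 0.32 ± 0.23 (adjusted p = 0.22) in batch 2, which did not pass, and 2.13 ± 0.30 (adjusted p = 2.64e-06) in batch 3. The batches differed by -1.81 ± 0.38 (adjusted p = 5.38e-04).

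Plk2, a polo-like kinase induced early by growth signals, had the largest rise of the 10 genes in neonatal islets, in batch 2 and in batch 3. Its lowest, median and highest levels were 36.8, 81.7 and 87.3 FPKM in small and 46.4, 69.2 and 93.2 FPKM in large neonatal islets. Adult islets had 18.8, 18.8, 23.1 and 24.8 FPKM in batch 2 and 6.12 and 5.66 FPKM in batch 3. All neonatal libraries were above all adult libraries of either batch. The mean of neonatal over that of adult libraries was 2.70 in batch 2 and 12.5 in batch 3. The log2 changes were 1.37 ± 0.15 (adjusted p = 4.78e-08) and 3.43 ± 0.21 (adjusted p = 3.31e-12), and they differed by -2.06 ± 0.26 (adjusted p = 1.39e-06).

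Plk3, a related polo-like kinase, was lower in neonatal than in adult islets in batch 2. The lowest, median and highest of the small neonatal libraries were 9.22, 18.2 and 47.1 FPKM, and of the large ones 6.84, 10.9 and 26.2 FPKM. Adult islets had 66.8, 65.1, 65.2 and 77.7 FPKM in batch 2 and 10.6 and 13.2 FPKM in batch 3. The adult libraries of batch 2 were above all others, and those of batch 3 lay within the neonatal range. The log2 change was -2.51 ± 0.16 (adjusted p = 2.53e-12) in batch 2 and 0.080 ± 0.21 (adjusted p = 0.746) in batch 3, with a difference of -2.59 ± 0.26 (adjusted p = 8.31e-08). In neonatal islets Plk3 also varied by batch, with 16.1 to 47.1 FPKM in batch 1, 6.84 to 18.2 FPKM in batch 2 and 9.96 to 15.2 FPKM in batch 3. In GENCODE M21 Plk3 shares 84 exon bases with Tctex1d4 on the other strand. The length behind its FPKM was 2363 bases, against 2531 exon bases there, so whether the shared bases were counted is not known.

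Ccng1 encodes cyclin G1, which brings a phosphatase to Mdm2. It was lower in neonatal than in adult islets in both batches. Small neonatal islets had 8.59, 15.1 and 18.8 FPKM at the lowest, median and highest, and large neonatal islets had 13.0, 16.7 and 21.5 FPKM. Adult islets had 32.4, 32.5, 28.4 and 28.7 FPKM in batch 2 and 30.7 and 31.6 FPKM in batch 3. The adult batches overlapped each other, and all neonatal libraries lay below both. Neonatal minus adult islets gave a log2 change of -0.68 ± 0.083 (adjusted p = 1.46e-07) in batch 2 and -0.95 ± 0.11 (adjusted p = 1.22e-07) in batch 3, and the difference of 0.27 ± 0.14 did not pass (adjusted p = 0.121).

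Trp53inp1, whose nuclear protein assists p53 in promoting cell death and also acts in autophagy, was lower in neonatal islets throughout. Its lowest, median and highest levels were 5.42, 6.74 and 12.4 FPKM in small and 7.19, 8.56 and 12.0 FPKM in large neonatal islets. Adult islets had 43.1, 41.5, 38.1 and 41.2 FPKM in batch 2 and 15.1 and 16.1 FPKM in batch 3. No neonatal library reached the lower of the adult batches. The log2 change was -1.92 ± 0.13 (adjusted p = 8.40e-12) in batch 2 and -0.96 ± 0.17 (adjusted p = 4.85e-05) in batch 3, and these differed by -0.96 ± 0.22 (adjusted p = 0.00108).

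Phlda3, a competitor of Akt for membrane lipids, was the lowest of these transcripts, with 40 to 281 fragments per library. The lowest, median and highest of the small neonatal libraries were 2.38, 3.45 and 5.14 FPKM, and of the large ones 3.14, 4.12 and 8.33 FPKM. Adult islets had 2.44, 2.38, 1.75 and 1.82 FPKM in batch 2 and 1.48 and 1.65 FPKM in batch 3. Within each batch every neonatal library was above every adult library. Neonatal minus adult islets gave a log2 change of 0.45 ± 0.13 (adjusted p = 0.00379) in batch 2 and 1.32 ± 0.17 (adjusted p = 6.58e-07) in batch 3, and these differed by -0.87 ± 0.22 (adjusted p = 0.0023). The batch 2 call was lost under median-of-ratios rescaling (0.29, adjusted p = 0.0535) and quantile normalization (0.066, adjusted p = 0.681).

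Zmat3, a gene for an RNA-binding zinc finger protein, was lower in neonatal than in adult islets in batch 3. Small neonatal islets had 7.53, 9.35 and 11.9 FPKM at the lowest, median and highest, and large neonatal islets had 5.18, 10.2 and 13.1 FPKM. Adult islets had 12.4, 12.8, 12.3 and 12.7 FPKM in batch 2 and 11.6 and 12.4 FPKM in batch 3. Both adult batches lay at the upper end of the neonatal range. The log2 change was -0.080 ± 0.10 (adjusted p = 0.503) in batch 2 and -0.50 ± 0.14 (adjusted p = 0.00291) in batch 3, and the difference of 0.42 ± 0.17 did not pass (adjusted p = 0.0505). That difference passed without large replicate 14, 15, 16 or 20 (0.29 to 0.51, adjusted p 0.00954 to 0.0364). Without small replicate 6 it was 0.50. Over all batches the change of -0.24 ± 0.094 passed (adjusted p = 0.0277), but not without adult replicate 5 (-0.20, adjusted p = 0.085) or adult replicate 6 (-0.18, adjusted p = 0.115).

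Counted over the 10 genes, 3 were called higher (Trp53, Plk2 and Phlda3) and 5 lower in neonatal than in adult islets in batch 2, where 69.8% of all genes were called, 49.4% higher and 20.4% lower. In batch 3, 5 were called higher (Trp53, Cdkn1a, Btg2, Plk2 and Phlda3) and 3 lower, where 68.3% of all genes were called, 43.0% higher and 25.2% lower. The share of these genes called was thus near that of all genes in both batches. Neonatal and adult libraries did not overlap for 7 of the 10 genes in batch 2, where the same held for 61.5% of all genes, and for 8 in batch 3, where it held for 67.0%. In batch 2, after either rescaling, only Plk2 stayed called higher, beside 6 genes called lower with median-of-ratios factors and 5 with quantile normalization. Over all batches 4 were called higher and 5 lower, with 67.9% of all genes called, 46.8% higher and 21.1% lower. Small islets against adult islets gave 4 higher and 4 lower, where 63.0% of all genes were called, 43.1% higher and 19.9% lower. Large islets against adult islets also gave 4 higher and 4 lower, where 67.2% of all genes were called, 46.9% higher and 20.2% lower. The change differed between batches 2 and 3 for 8 of the 10 genes, all 8 with a lower value in batch 2, where 45.9% of all genes differed, 26.2% with a higher and 19.6% with a lower value. Quantile normalization added Ccng1 (0.38, adjusted p = 0.0354) and Zmat3 (0.49, adjusted p = 0.039) in the opposite direction.

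**Figure D2:**
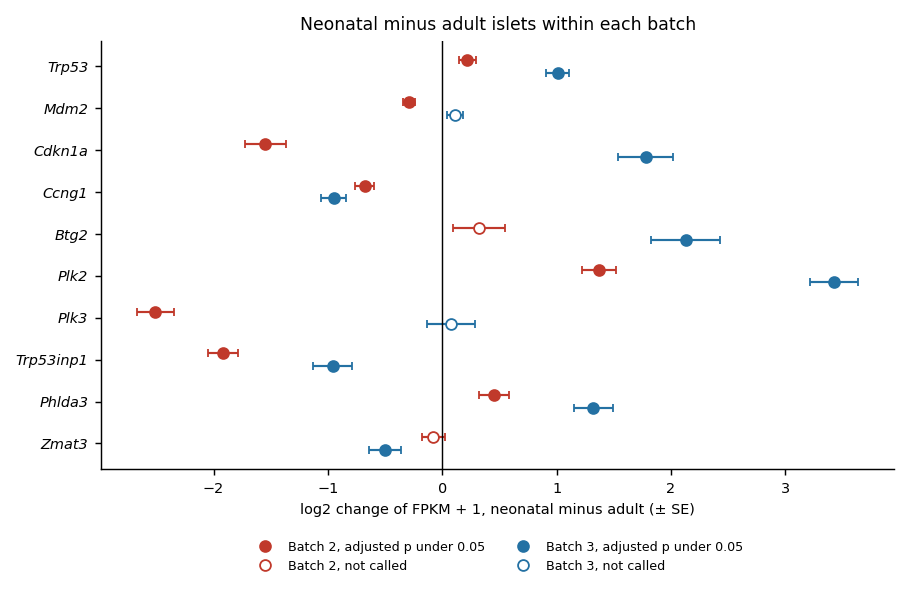
Log2 change of FPKM + 1, neonatal minus adult islets, for each gene within batch 2 and within batch 3, with the standard error as bars and filled points for an adjusted p under 0.05. Cdkn1a lies at -1.55 in batch 2 and 1.78 in batch 3, while Ccng1 and Trp53inp1 lie left of 0 in both batches and Plk2 right of 0 in both.

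The adult libraries of batch 2 were then set against those of batch 3, which asks how far adult islets differed from each other. Cdkn1a was 8.79 times as high in adult batch 2, a log2 change of 2.92 ± 0.25 (adjusted p = 5.56e-09). Plk3 was 5.79 times as high (2.44 ± 0.22, adjusted p = 7.93e-09), Plk2 3.63 times (1.69 ± 0.21, adjusted p = 1.42e-06) and Btg2 3.36 times (1.67 ± 0.31, adjusted p = 1.89e-04). Trp53inp1 was 2.63 times as high (1.34 ± 0.18, adjusted p = 3.25e-06). Trp53 and Mdm2 differed less, with log2 changes of 0.50 ± 0.11 (adjusted p = 5.64e-04) and 0.51 ± 0.07 (adjusted p = 4.71e-06). Ccng1 (-0.032 ± 0.11, adjusted p = 0.841), Phlda3 (0.26 ± 0.18, adjusted p = 0.238) and Zmat3 (0.063 ± 0.14, adjusted p = 0.746) did not pass.

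In all, 7 of the 10 genes were called higher in adult batch 2 and 0 lower, where 45.8% of all genes were called, 17.4% higher and 28.4% lower. The median log2 change was 0.92 over the 10 genes and -0.11 over all genes. In 8 of the 10 genes both adult libraries of batch 3 lay below all 4 of batch 2, as in 24.7% of all genes. The batch and anything else that differed between these adult libraries cannot be told apart. The same batch comparison in neonatal islets gave 3 genes higher (Ccng1, Trp53inp1 and Zmat3) and 3 lower (Trp53, Plk2 and Phlda3) in batch 2, where 38.9% of all genes were called, 17.2% higher and 21.7% lower. There the largest change was -0.61 ± 0.12 (adjusted p = 7.74e-04), for Phlda3. Cdkn1a changed by -0.41 ± 0.17 (adjusted p = 0.0645) and Plk3 by -0.15 ± 0.15 (adjusted p = 0.436) between the neonatal batches, neither of which passed. The call of Plk2 was lost under median-of-ratios rescaling (-0.35, adjusted p = 0.0529) and quantile normalization (-0.30, adjusted p = 0.0826), and in 18 of the fits that left out 1 library (changes of -0.48 to -0.20). That of Ccng1 was lost without small replicate 5 (0.22, adjusted p = 0.0788) or 8 (0.21, adjusted p = 0.0589). That of Trp53inp1 was lost without small replicate 6 (0.29, adjusted p = 0.11), 7 (0.32, adjusted p = 0.0515) or 8 (0.32, adjusted p = 0.0579). Cdkn1a was called in 4 such fits, without small replicate 3, 6 or 7 or large replicate 15 (-0.58 to -0.41, adjusted p 0.023 to 0.0478), and Mdm2 was called higher under both rescalings (0.13 and 0.12, adjusted p = 0.0431 in both) and without small replicate 9 or large replicate 14.

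**Figure D3:**
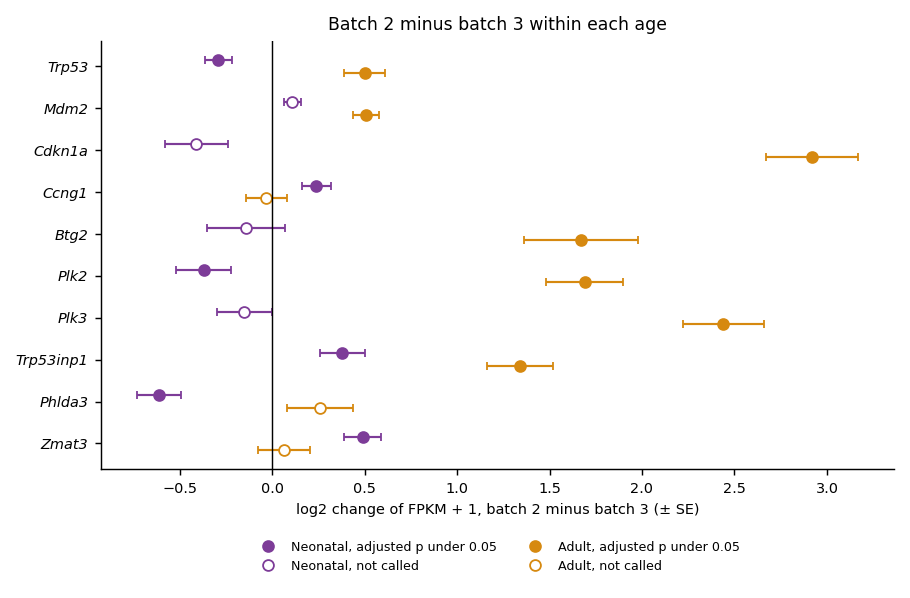
Log2 change of FPKM + 1, batch 2 minus batch 3, for each gene in neonatal and in adult islets, with the standard error as bars and filled points for an adjusted p under 0.05. In adult islets Cdkn1a reaches 2.92 and Plk3 2.44, while in neonatal islets every gene lies between -0.61 and 0.49.

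Immediate early genes, which cells switch on within minutes of a stimulus, moved with the difference between the adult batches. All 20 were called higher in adult batch 2 than in adult batch 3, with a median log2 change of 3.55. Of all genes, 17.4% were called higher there and 28.4% lower. This list, that of the integrated stress response and the other lists were chosen with earlier results of these data known. The FPKM of the 20 immediate early genes summed to 2194 to 6656 in neonatal libraries, 2623 to 4663 in adult libraries of batch 2, and no more than 212 in those of batch 3. Atf3, a stress-induced transcription factor, averaged 144 ± 31.8 FPKM (SD, n = 4) in adult batch 2 and 0.533 ± 0.0686 FPKM (n = 2) in adult batch 3. Genes of the integrated stress response, which cells turn on when protein synthesis or folding fails, moved likewise. Beside the same 17.4% of all genes, 16 of 17 were called higher in adult batch 2, with a median of 1.11. These summed to 472 to 748 in neonatal libraries, 1437 to 1520 in adult libraries of batch 2, and 458 and 550 in those of batch 3. The sums are weighted to abundant genes, and genes of the list went both ways between neonatal and adult batch 3 libraries. Mean FPKM in these was 25.1 and 56.0 for Asns and 20.7 and 61.1 for Atf5. It was 199 and 122 for Atf4 and 86.8 and 11.6 for Ppp1r15a. Ddit3, a factor of that response that promotes cell death, averaged 268 ± 19.7 FPKM (n = 4) in adult batch 2 and 16.8 ± 2.61 FPKM (n = 2) in adult batch 3. The part of either response, and of the lower depth of the adult libraries of batch 3, in the levels of the p53 targets was not tested.

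Other p53 targets that act in cell cycle arrest and growth were mostly called higher in adult batch 2. Of all genes, 17.4% were called higher and 28.4% lower in adult batch 2 than in adult batch 3. Of 14 genes kept from a list of 15, 8 were called higher and 3 lower, with a median log2 change of 1.03. The highest were Dusp4, a phosphatase of MAP kinases (3.75 ± 0.36, adjusted p = 5.88e-08), and Gadd45b, a growth arrest gene (3.16 ± 0.51, adjusted p = 5.32e-05). The lowest were the receptor gene Notch1 (-0.49 ± 0.13, adjusted p = 0.00285) and the kinase gene Cdc42bpg (-0.47 ± 0.10, adjusted p = 6.63e-04). Gadd45b averaged 106 ± 17.7 FPKM (SD, n = 4) in adult batch 2 and 11.2 ± 3.81 FPKM (n = 2) in adult batch 3. In neonatal against adult islets 49.4% of all genes were called higher and 20.4% lower in batch 2, and 43.0% and 25.2% in batch 3. Of the list 6 were higher and 7 lower in batch 2 (median -0.31), and 12 were higher and 0 lower in batch 3 (median 1.43). Gadd45b again changed sign, with -1.86 ± 0.37 (adjusted p = 1.60e-04) in batch 2 and 2.29 ± 0.49 (adjusted p = 4.02e-04) in batch 3. Gtse1, a binding partner of p53 made in dividing cells, was higher in neonatal islets in both batches (1.86 ± 0.091, adjusted p = 2.30e-14, and 2.13 ± 0.12, adjusted p = 1.03e-12). Sesn2 of this list and Gadd45b respond also to other stresses, and Sesn2 stands in the integrated stress response list too.

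p53 targets of the cell death programme had a median near 0 between the adult batches. Of 14 genes kept from a list of 17, 5 were called higher and 2 lower in adult batch 2 than in adult batch 3, with a median of 0.05. The shares of all genes there were 17.4% higher and 28.4% lower. Among the genes kept from this list, 2 stood at each end. The highest were the death receptor gene Tnfrsf10b (1.55 ± 0.11, adjusted p = 2.12e-10) and Bbc3, which encodes the BCL2 antagonist PUMA (1.27 ± 0.32, adjusted p = 0.00313). The lowest were Trp53i13 (-0.33 ± 0.09, adjusted p = 0.00445) and Ei24 (-0.32 ± 0.086, adjusted p = 0.00378). Pmaip1 and Steap3 of this list did not pass the filter on low values and were not tested. Pmaip1 averaged 1.39 FPKM in adult batch 2 and 0.295 FPKM in adult batch 3, and Steap3 0.314 and 0.482 FPKM. In neonatal against adult islets 49.4% of all genes were called higher and 20.4% lower in batch 2, and 43.0% and 25.2% in batch 3. Of the genes kept from the list 7 were higher and 4 lower in batch 2 (median 0.24), and 12 were higher and 0 lower in batch 3 (median 0.68). Trp53i11 was the highest in both batches, at 34.2 ± 4.1 FPKM (SD, n = 7) in neonatal and 11.1 ± 1.06 FPKM (n = 4) in adult islets of batch 2. In batch 3 Trp53i11 had 44.5 ± 3.76 FPKM (n = 5) in neonatal and 13.4 ± 1.73 FPKM (n = 2) in adult islets. Fas, a death receptor gene, was lower in neonatal islets in batch 2 (-1.01 ± 0.12, adjusted p = 1.50e-07), while its change in batch 3 did not pass (-0.042 ± 0.17).

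p53 targets of repair and metabolism changed in both directions between the adult batches. Of 18 genes kept from a list of 20, 5 were called higher and 8 lower in adult batch 2, with a median of -0.27, and all genes too were more often lower (28.4%) than higher (17.4%). Lpin1, a phosphatidate phosphatase gene (1.05 ± 0.14, adjusted p = 4.33e-06), and Gpx1, a glutathione peroxidase gene (1.00 ± 0.18, adjusted p = 1.32e-04), were the highest. The DNA polymerase gene Polk (-0.74 ± 0.10, adjusted p = 3.94e-06) and the damage sensor gene Ddb2 (-0.62 ± 0.13, adjusted p = 7.05e-04) were the lowest. In neonatal against adult islets 49.4% of all genes were called higher and 20.4% lower in batch 2, and 43.0% and 25.2% in batch 3. Of the list 8 were higher and 3 lower in batch 2 (median 0.13), and 6 were higher and 5 lower in batch 3 (median -0.08). Pcna, the sliding clamp of DNA replication, was higher in neonatal islets in both batches (0.70 ± 0.14, adjusted p = 1.32e-04, and 1.84 ± 0.19, adjusted p = 1.54e-08), beside the proliferation markers. Lpin1 was the lowest in both (-2.24 ± 0.10, adjusted p = 1.14e-14, and -1.23 ± 0.14, adjusted p = 7.27e-08).

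Genes that act on p53 changed in both directions. Of all genes, 49.4% were called higher and 20.4% lower in neonatal than in adult islets in batch 2, and 43.0% and 25.2% in batch 3. Of 21 regulators kept from a list of 25, 7 were higher and 5 lower in batch 2. In batch 3, 9 of them were higher and 4 lower, and the median was 0.14 in both batches. The checkpoint kinase genes Chek2 and Chek1 were the highest in both batches. Chek2 averaged 2.66 ± 0.59 FPKM (SD, n = 7) in neonatal and 0.356 ± 0.118 FPKM (n = 4) in adult islets of batch 2, and 3.38 ± 0.817 FPKM (n = 5) in neonatal and 0.55 ± 0.011 FPKM (n = 2) in adult islets of batch 3. Trp53bp2, a p53 partner that favours cell death, was lower in neonatal islets in batch 2 (-0.87 ± 0.053, adjusted p = 1.14e-12) and higher in batch 3 (0.24 ± 0.071, adjusted p = 0.00456). Rchy1, a ubiquitin ligase gene of p53, was lower in batch 2 (-0.76 ± 0.073, adjusted p = 3.28e-09). In batch 3 the lowest were the damage kinase gene Atm (-1.05 ± 0.18, adjusted p = 2.18e-05) and Mdm4, a relative of Mdm2 (-0.55 ± 0.11, adjusted p = 1.73e-04). Between the adult batches 8 regulators were higher and 3 lower in batch 2 (median 0.02), where 17.4% of all genes were higher and 28.4% lower. Trp53bp2 (1.03) and Rchy1 (0.84) were the highest of these regulators and Atm (-1.02) and Atr (-0.53) the lowest.

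**Figure D4:**
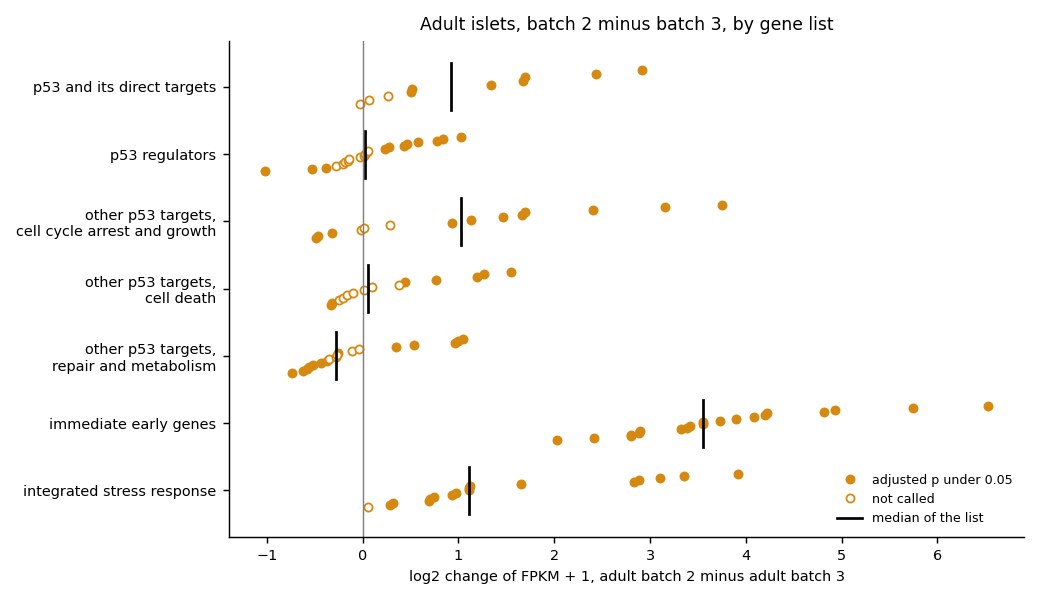
Log2 change of FPKM + 1, adult batch 2 minus adult batch 3, for each gene of 7 lists, with filled points for an adjusted p under 0.05 and a line at each list's median. The medians are 0.92 for p53 and its direct targets, 1.03 for other targets in arrest and growth, 0.05 for cell death, -0.27 for repair and metabolism, 3.55 for immediate early genes and 1.11 for the integrated stress response.

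Few of these genes passed a test between small and large neonatal islets. Over all batches, small and large neonatal libraries overlapped for all 10 genes, and a gap was seen in 0.0522% of all genes. With all batches together Ccng1 alone was called, lower in small islets by -0.27 ± 0.073 (adjusted p = 0.0166). Of all genes 17.6% were called there, 4.96% higher and 12.7% lower. The Ccng1 call was lost without a batch term (-0.30, adjusted p = 0.129). Phlda3 did not pass (-0.34 ± 0.12, adjusted p = 0.0542). It lay near the threshold, and was called in 7 of the fits that left out 1 library (-0.38 to -0.34). A limma fit that paired small and large libraries by the number in their names also called Plk3 (0.38, adjusted p = 0.0277) and Phlda3 (-0.46, adjusted p = 0.00407). The labels do not say what these numbers mark. In batch 1, 1 gene was higher and 2 were lower in small islets, where 34.3% of all genes were called, 13.7% higher and 20.6% lower. Plk3 had 38.6, 31.9, 39.4 and 47.1 FPKM in small and 21.8, 16.1, 24.6 and 26.2 FPKM in large islets of batch 1 (0.80 ± 0.18, adjusted p = 0.00202). Ccng1 had 12.5, 10.4, 8.59 and 9.56 FPKM in small and 16.9, 13.3, 13.0 and 15.6 FPKM in large islets of batch 1 (-0.48 ± 0.094, adjusted p = 7.59e-04). Trp53inp1 was lower in small islets of that batch by -0.39 ± 0.15 (adjusted p = 0.0444). The small libraries of batch 1 were also the shallower ones, and the part of depth was not tested. In batches 2 and 3, none of the 10 genes was called between sizes, and limma called 0 genes in batch 2 and 4 in batch 3, or 0.0298%, all lower. An unadjusted p under 0.05 was reached by 860 genes in batch 2 and 1745 in batch 3. Whether the size difference itself differed between batches was not tested.

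Within each batch, the pair of neonatal libraries with the most Cdkn1a also had the most Btg2, a pattern picked out after the values were seen. In batch 1 these were small replicate 3 (29.7 FPKM of Cdkn1a and 332 FPKM of Btg2) and large replicate 12 (27.1 and 327 FPKM). In batch 2 they were small replicate 7 (23.8 and 347 FPKM) and small replicate 8 (20.4 and 337 FPKM), and in batch 3 small replicate 5 (28.8 and 311 FPKM) and large replicate 14 (24.5 and 265 FPKM). The pairs in batches 1 and 3 were a small and a large library whose names carry the same number. The same large replicate 14 had the highest Phlda3 (8.33 FPKM) and the lowest Zmat3 (5.18 FPKM) of all neonatal libraries. Phlda3 had the shortest and Zmat3 the longest length behind the FPKM of these genes, at 1465 and 7776 bases. Whether this library was shifted more widely, or by transcript length, was not tested.

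The genes most like Trp53, Cdkn1a and Mdm2 over the 26 libraries were found by the root mean square difference between profiles scaled to mean 0 and SD 1. For Trp53 these were Nectin2 (0.330), Rnps1 (0.367), Ubald2 (0.369), Plekho1 (0.373) and Tgfb1 (0.374), and Plk2 stood closest among the targets, in place 84 (0.485). For Cdkn1a they were Zbtb2 (0.269), Nfil3 (0.276), Ccdc86 (0.285), Bhlhe40 (0.298) and Mlf1 (0.305), with Mdm2 in place 243 (0.660) and Trp53 in place 2150 (1.22). Nfil3, a transcription factor gene, averaged 42.5 FPKM in neonatal, 109 FPKM in adult batch 2 and 6.53 FPKM in adult batch 3 libraries. This is the same order of groups as for Cdkn1a, which follows from picking Nfil3 by its likeness over these libraries. For Mdm2 they were Mir22hg (0.393), Dyrk1a (0.416), Tsr1 (0.432), Casc3 (0.434) and Ccnk (0.446), with Plk3 in place 25 (0.519).

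In the authors' deposited table of their own neonatal against adult comparison, in which a positive log2 fold change means higher in neonatal islets, Plk2 was marked UP (1.81, FDR 1.21e-06). In the authors' deposited table Ccng1 (-1.04, FDR 6.36e-10), Plk3 (-2.12, FDR 3.24e-06) and Trp53inp1 (-1.92, FDR 2.08e-11) were marked DOWN. Cdkn1a stood in the authors' deposited table at -1.0 (FDR 0.0233) with no mark. Trp53 (0.27, FDR 0.0232), Mdm2 (-0.40, FDR 1.83e-05), Phlda3 (0.79, FDR 0.00166) and Zmat3 (-0.48, FDR 1.55e-04) had no mark in the authors' deposited table, nor did Btg2 (0.61, FDR 0.054).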

How the data were processed

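Per the submitters' processing notes, HTSeq 0.11.1, STAR 2.6a and edgeR were used with the mm10 build, in roles not stated; annotation, gene lengths and use of strand are not given in the sources used here. The deposited table gives 1 FPKM value per gene for each of 26 libraries. The authors also deposited a log2 fold change with its F statistic as a score, and the p-value and FDR of that test, for neonatal against adult islets.

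Libraries were matched to groups and batches by the names in the labels. The genes, lists and comparisons were chosen with earlier results of these data known. FPKM was log2 transformed after adding 1, which understates changes of low genes, and genes that reached an FPKM of 1 in 6 or more libraries were fitted with limma 3.58.1 (trend, robust) in R 4.3.3. Pooled comparisons had group and batch terms, and comparisons within and between batches had a term for each of 8 groups by batch. Tests were two-sided, with Benjamini-Hochberg adjustment over all 13402 genes and a threshold of 0.05. Named genes were the 10 genes, up to 2 called genes at each end of a list, and the 5 genes most like Trp53, Cdkn1a and Mdm2. Gadd45b, Sesn2, Atf3, Ddit3, Asns, Atf5, Atf4, Ppp1r15a, Ins1, Ins2 and Nfil3 are named too as examples of their lists.

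Whole fragments were recovered from the FPKM: with whole-number gene lengths, 100% of values came out whole within 0.03 fragments, and the FPKM rebuilt from them had a relative error of up to 9.35e-08. They gave the depth and an added fit with voom. The fits were tested on simulated data. Positions are of GRCm38, and exon overlaps of GENCODE M21. The 20 gene names that spreadsheet software had turned into dates stayed in the fits unnamed. No 2 libraries held identical values.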

Additional observations from a re-analysis of the deposited data

Results flagged for a closer look

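The neonatal against adult change differed between batches 2 and 3 in limma's test for 8 genes, each with a lower value in batch 2, where 45.9% of all genes differed and 19.6% had a lower value. The differences on the log2 scale were -0.79 for Trp53, -0.40 for Mdm2, -3.33 for Cdkn1a, -1.81 for Btg2, -2.06 for Plk2, -2.59 for Plk3, -0.96 for Trp53inp1 and -0.87 for Phlda3.

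A library stood far from the others of its group in 4 of 60 groups of values examined, where chance gives about 1 in 20. Plk2 was lowest in small replicate 9 of the neonatal islets, at 36.8 FPKM, and highest in large replicate 12 among the large libraries of batch 1, at 93.2 FPKM. Plk3 was highest in replicate 4 of the adult libraries of batch 2, at 77.7 FPKM. Zmat3 was lowest in replicate 5 of the adult libraries, at 11.6 FPKM.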

How the results depend on the processing

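The alternatives were a pseudocount of 0.1, no filter on low values, median-of-ratios rescaling, quantile normalization, no batch term, leaving out each library, replicate blocks, and voom on recovered fragments (chosen after seeing the data). The planned edgeR test was not run. Of the results for single genes under these alternatives, 2760 kept their direction and side of the threshold, 47 lost a call, 32 gained one and 11 changed sign. Most of these results came from leaving out 1 library, which was often outside the groups compared. The counts therefore say little about other changes of scaling or model. Between small and large islets, where 1 gene was called, 0 were called without a batch term. With the replicate block from the number shared by library names (7 pairs) 3 were called, with Plk3 at 0.38 (adjusted p = 0.0277) and Phlda3 at -0.46 (adjusted p = 0.00407, lower in the small library of all 7 pairs) added and Plk2 turned to -0.030; leaving out 1 library gave 1 to 2 called genes. Same-numbered libraries deviated together in 6 of 7 pairs (correlation over 0.1), and 12 of 14 correlated best with their own number, a hint from the data and not from the design. The call of Plk3 in small against adult islets was lost with no batch term (-0.78, adjusted p = 0.119) and with no batch term plus the block from the title numbers (-0.46, adjusted p = 0.0704), so the block's own part cannot be told apart there.

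The other changes of sign were of values that had not passed. After median-of-ratios rescaling and quantile normalization Mdm2 in batch 3 was -0.051 and -0.041 and Plk3 in batch 3 was -0.076 and -0.089. Ccng1 between the adult batches was 0.042 after median-of-ratios rescaling, and Btg2 between the neonatal batches was 0.065 after quantile normalization. Leaving out 1 library gave -0.015 to 0.21 for Plk2 between sizes, -0.066 to 0.23 for Plk3 in batch 3, -0.063 to 0.00021 for Ccng1 between the adult batches and -0.24 to 0.024 for Btg2 between the neonatal batches. Where adult batch 3 was left with 1 library, it was assumed to vary like the other groups. The causes were not tested. Depth limits Phlda3 most, and 2 adult libraries in batch 3 limit every value there.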
